A study of Mus musculus with 6 samples.

Results

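The table of 17382 genes was read here for 9 genes, chosen by name: Tyrobp and Fcer1g, the adaptors DAP12 and FcR gamma chain; the receptors Trem1, Trem2, Trem3, Clec5a, Oscar and Siglec15, which signal through these adaptors; and Syk, the kinase that the adaptors recruit. All 9 were listed in the table. Levels come from 6 RNA libraries of myeloid cells that were grown out of mouse bone marrow, 3 per group. In the group labelled CKO the mice had the genotype PD-L1 flox/flox +lysozyme-Cre, and in the group labelled WT it was PD-L1 flox/flox, so the floxed alleles were common to both groups. Lysozyme-Cre expresses the recombinase from a promoter of macrophages and neutrophils, so a deletion is aimed at those cells and not at other cells of the marrow. All mice were C57BL/6 and aged 2 months. Their marrow was passed through a 40 µm mesh and held for 3 days in α-MEM with 10% FBS and 40 ng/mL of mouse M-CSF, a cytokine on which macrophages depend. No other agent is named, RANKL of osteoclast cultures among them.

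DAP12 and the FcR gamma chain are short membrane proteins with almost no part outside the cell. Each carries an ITAM, an activation motif made of a pair of tyrosines, each followed by a leucine or isoleucine at a fixed distance. A receptor such as TREM2 has no such motif of its own; it binds the adaptor inside the membrane, Src family kinases phosphorylate the tyrosines when the receptor is engaged, and Syk docks there. In macrophages these complexes serve recognition of lipids, lipoproteins and microbes, and in osteoclasts they give the costimulation that RANK signalling needs.

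The motif is shown because it separates the adaptors from the other 7 genes of the set. In the longest complete coding sequences of GENCODE M21 (build GRCm38, the same as mm10), preferring one that holds the motif, a tyrosine, any 2 residues, a leucine or isoleucine, 6 to 8 residues and the same tyrosine unit again were sought. The coding bases of the stretch are printed 5′ to 3′ in lower case, with the tyrosine and leucine codons in capitals.
Tyrobp: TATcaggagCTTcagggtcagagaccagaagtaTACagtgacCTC
Fcer1g: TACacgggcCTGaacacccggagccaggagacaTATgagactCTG
Each stretch has 45 bases with 7 residues between its tyrosine units, and each is split by an intron between exon 4 and exon 5 of its transcript. That of Tyrobp lies within chr7:30415670-30417382 on the plus strand and that of Fcer1g within chr1:171229889-171230072 on the minus strand. The pair is identical at 19 of 45 bases, or 42.2%. None of the other 7 genes held the pattern, which occurred in 438 of 14962 genes with a complete coding sequence, or 2.93%. The longest coding sequences were 114 residues for Tyrobp and 86 for Fcer1g (in each case of those with the motif), against 249 for Trem2 and 629 for Syk.

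Depth, recovered from the values, was 52355715 to 77318225 reads per library. The first principal component of the libraries held 44.3% of the variance and set CKO 1, CKO 2 and WT 3 (scores -23.1, -17.4 and -30.1) apart from CKO 3, WT 1 and WT 2 (31.8, 19.8 and 19.1), so that CKO 3 and WT 3 stood apart from the rest of their own group. Cd274, which encodes PD-L1, had 19.3, 19.2 and 29.2 TPM in the libraries labelled CKO and 17.9, 15.5 and 23.7 TPM in WT; it was not lower in the former, a value for the whole gene does not show whether floxed exons were lost, and groups are given below by their labels. All 7 macrophage markers in the table were present, led by Cd68 at 1900 to 2500 TPM and Csf1r at 815 to 1525 TPM. Neutrophil markers were abundant too: S100a8 had 1727 to 2546 TPM and S100a9 2877 to 4151 TPM. The macrophage list summed to 4779 to 5936 TPM in the libraries labelled CKO and 5121 to 6164 TPM in WT, and the neutrophil list to 7202 to 8346 and 5991 to 8728 TPM.

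The adaptors were among the most abundant transcripts of the cultures. Levels are TPM, reads per gene length scaled to the same total in each library, so that genes can be compared. Tyrobp lies at chr7:30413788-30417579 on the plus strand of mm10, 132 bp from Hcst, which encodes the related adaptor DAP10 on the other strand. It had 2625, 2675 and 1913 TPM in the libraries labelled CKO and 2253, 2171 and 2773 TPM in WT. CKO 3 was the lowest library and WT 3 the highest, and the groups overlapped. Tyrobp ranked between place 23 and place 39 among all genes of a library. Hcst, by comparison, had 12.6 to 20.3 TPM.

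Fcer1g, at chr1:171229572-171234349 on the minus strand, encodes the gamma chain first known from the IgE receptor and shared by activating Fc receptors. It had 1812, 1987 and 1700 TPM in the libraries labelled CKO and 2115, 1622 and 1962 TPM in WT. Its lowest and its highest library were both WT. It ranked between place 32 and place 50. Tyrobp lay above Fcer1g in 6 of 6 libraries, by 1.07 to 1.45 times (median 1.34), although the ranges of the genes over the libraries overlapped.

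Trem2 was the dominant receptor of the set. It binds phospholipids, lipoproteins and apolipoproteins, and it lies at chr17:48346401-48352276 on the plus strand. It had 938, 832 and 736 TPM in the libraries labelled CKO and 854, 780 and 950 TPM in WT, with CKO 3 lowest and WT 3 highest. It made up 93.2% to 95.6% of the summed TPM of the 6 receptors in every library. Tyrobp was 2.60 to 3.21 times as high as Trem2.

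Clec5a, a C-type lectin that pairs with DAP12 and is known as a receptor of flaviviruses, lies at chr6:40574898-40585805 on the minus strand. It had 30.2, 32.4 and 33.9 TPM in the libraries labelled CKO and 31.1, 30.3 and 27.9 TPM in WT. The highest values were CKO 3 and CKO 2 and the lowest WT 3, but CKO 1 lay among the WT libraries. Its highest library was 1.22 times its lowest, the narrowest range of the 7 genes that were tested.

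Trem3 and Trem1 are receptors of neutrophils and monocytes that amplify inflammatory signals. They lie side by side, Trem1 at chr17:48232739-48246924 and Trem3 at chr17:48247729-48258847, with 804 bp between them on the plus strand. Trem3 had 12.8, 12.6 and 16.0 TPM in the libraries labelled CKO and 16.0, 13.3 and 12.5 TPM in WT. CKO 3 and WT 1 were high and the other 4 libraries lay close together. Trem1 had 2.86, 3.57 and 3.84 TPM in the libraries labelled CKO and 3.25, 3.09 and 3.27 TPM in WT, from 208 to 296 reads per library. All 3 WT values of Trem1 fell inside the range of CKO. Trem3 exceeded Trem1 by 3.53 to 4.94 times.

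Within the same cluster the levels lay far apart, and Trem2 was 192 to 328 times as high as Trem1. The genes between and beside them, taken by position, were A530064D06Rik on the minus strand, before Trem1, with a mean of 109.5 TPM, Treml4 with a mean of 21.0 TPM, Treml2 with 18.4, B430306N03Rik with 138 and Treml1, a receptor of platelets, with 10.4. Platelet genes were present in the cultures, with Pf4 at 701 to 1036 TPM, and their part in the level of Treml1 was not tested.

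**Figure D1:**
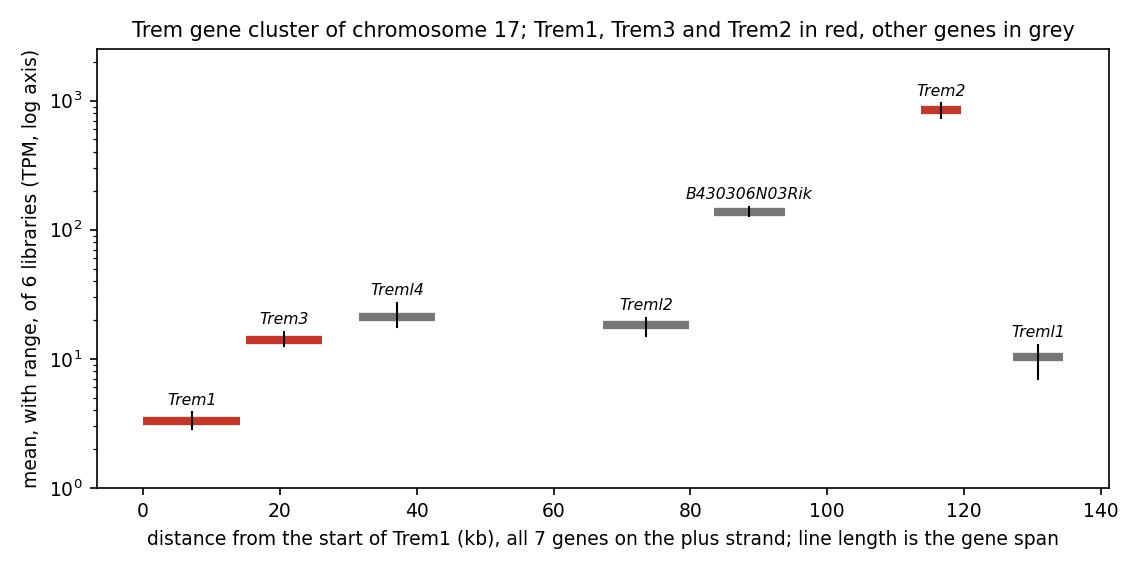
The plot of the Trem cluster gives, for the 7 plus-strand genes from Trem1 to Treml1, distance from the start of Trem1 in kb on the x axis and the mean TPM of 6 libraries on a log axis, with the range over the libraries as a vertical line. Trem2 stands at 848 TPM, above B430306N03Rik at 138 and the other 5 genes drawn at 21.0 or less.

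The sequences before the starts of Trem1 and Trem2 are shown since these neighbours differ most in level. The 250 bases before each start are from RefSeq's promoters of GRCm38.p6, which held 6 of the 9 genes, and the motifs GAGGAA (core of the site of PU.1, a factor of myeloid cells) and TGANTCA (the site of AP-1), searched on both strands, are in capitals. The motifs share no bases in these windows.
Trem1: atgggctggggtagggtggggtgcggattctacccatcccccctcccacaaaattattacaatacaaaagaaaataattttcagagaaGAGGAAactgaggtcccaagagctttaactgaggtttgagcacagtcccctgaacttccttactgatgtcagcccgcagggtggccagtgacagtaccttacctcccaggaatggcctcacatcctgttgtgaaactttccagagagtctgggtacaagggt
Trem2: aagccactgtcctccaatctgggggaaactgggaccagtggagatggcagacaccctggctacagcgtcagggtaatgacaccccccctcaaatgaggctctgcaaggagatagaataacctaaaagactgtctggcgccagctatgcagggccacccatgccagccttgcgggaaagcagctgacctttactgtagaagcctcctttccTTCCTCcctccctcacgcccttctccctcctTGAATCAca
They lie at chr17:48232489-48232738 and chr17:48346151-48346400, both on the plus strand. Trem1 had GAGGAA beginning 162 bases before its start. Trem2 had it on the other strand 40 bases before the start, and TGANTCA 9 bases before. Clec5a, Oscar and the downstream of the Syk starts also held GAGGAA, whereas Fcer1g and the upstream Syk start did not. Over all 32851 promoters of that table, 23.3% held GAGGAA and 6.75% TGANTCA, so neither match is rare, and a match of letters is a description and no site.

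Syk lies at chr13:52583437-52648792 on the plus strand. It had 207, 195 and 151 TPM in the libraries labelled CKO and 155, 155 and 218 TPM in WT. CKO 1, CKO 2 and WT 3 were high, and CKO 3 lay with WT 1 and WT 2 close to a common lower level. These values rest on 17250 to 32947 reads per library.

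Oscar and Siglec15 were at the limit of detection. Both are receptors of osteoclasts, OSCAR binding collagen and pairing with the FcR gamma chain, and SIGLEC15 binding sialic acid and pairing with DAP12. Oscar, at chr7:3609815-3616157 on the minus strand, had 2, 4 and 0 reads in the libraries labelled CKO and 2, 2 and 4 reads in WT, or at most 0.0791 TPM. Siglec15, at chr18:78043614-78057268 on the minus strand, had 2, 1 and 1 reads and 0, 2 and 1 reads, or at most 0.0656 TPM. A count of 0 allows up to 3 reads, which is 0.0495 CPM, a count scaled to the library's depth, for Oscar in CKO 3 and 0.0573 CPM for Siglec15 in WT 1. These limits cover counting error only. A difference between the groups was not detectable at this depth for either gene.

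Other osteoclast markers ranged widely in level, and the 7 in the table summed to 89.0 to 109 TPM in the libraries labelled CKO and 90.1 to 119 TPM in WT. The most abundant, Mmp9 and Atp6v0d2, had up to 41.7 and 39.3 TPM. Dcstamp and Ocstamp, which osteoclast precursors need for fusion, had 0.255 to 0.690 and 0.161 to 0.337 TPM.

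The order of the mean levels was Tyrobp, Fcer1g, Trem2, Syk, Clec5a, Trem3, Trem1, Oscar and Siglec15. Every neighbour down to Trem1 and Oscar was in this order in 6 of 6 libraries, and the ranges over the libraries overlapped for Tyrobp with Fcer1g and for Oscar with Siglec15 only. Oscar exceeded Siglec15 in 3 of 6 libraries, and these genes do not differ beyond their counting error.

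**Figure D2:**
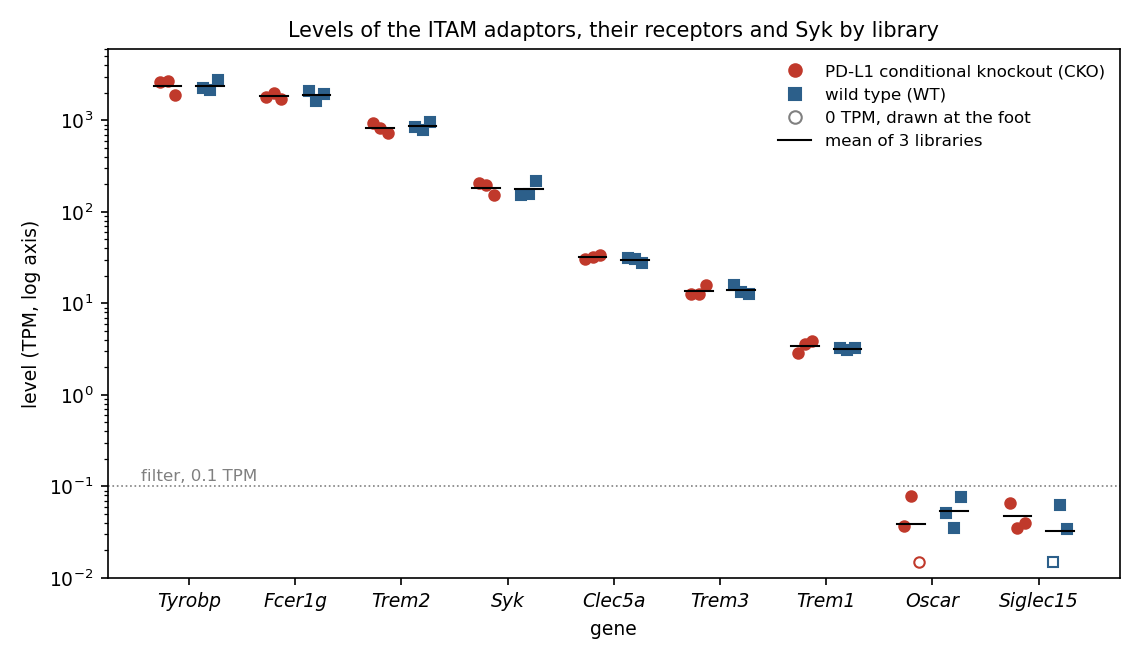
The plot of levels gives each of the 9 genes on the x axis and TPM on a log axis, with 3 libraries labelled CKO as circles, 3 of WT as squares and the group mean as a line; a value of 0 is drawn open at the foot. Tyrobp and Fcer1g stand highest, at 1622 to 2773 TPM, Oscar and Siglec15 under the filter of 0.1 TPM, and the groups overlap for each gene.

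The design compares cells with and without a Cre aimed at PD-L1, and none of the 7 genes that could be tested differed between the groups beyond the spread of the libraries. The 7 genes with at least 0.1 TPM in 3 libraries entered the limma test over all genes, and Oscar and Siglec15 did not. Of the 7, 0 passed at an adjusted p under 0.05, where 0.0% of the 13722 genes tested did, and 0 passed at an unadjusted p under 0.05, where 299 genes or 2.18% did. By limma-voom, run on the recovered reads, 310 genes had an unadjusted p under 0.05 and 0 passed after adjustment. For 0 of the 7 did the groups not overlap, where the share over all genes tested was 5.12%, made up of 2.84% higher and 2.27% lower in the libraries labelled CKO. The log2 differences, CKO minus WT on the scale of log2(TPM + 0.1), ran from -0.05 to 0.11 with 3 positive and 4 negative. Their median was -0.00, and that of all genes tested 0.00; the median size without sign was 0.05 and over all genes 0.07.

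For Tyrobp the means were 2404 ± 426 TPM in the libraries labelled CKO and 2399 ± 327 TPM in WT (SD, n = 3 each). The log2 difference was -0.00 ± 0.18 (SE), with a 95% interval of -0.43 to 0.42, so a level from 0.745 to 1.33 times that of WT lies inside it (limma, adjusted p = 1.0). Fcer1g had 1833 ± 145 and 1899 ± 252 TPM, a log2 difference of -0.05 ± 0.13 with an interval of -0.37 to 0.28. These intervals bound the difference of either adaptor and do not show that it is absent.

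Trem2 had 835 ± 101 against 862 ± 84.9 TPM, a log2 difference of -0.05 ± 0.13 with an interval of -0.35 to 0.25. Clec5a had the largest difference of the set, 32.2 ± 1.86 against 29.8 ± 1.67 TPM or 0.11 ± 0.09 on the log2 scale, with an interval of -0.10 to 0.32. These are the receptor of lipids and the lectin, and neither interval leaves out 0. Trem1 and Trem3 differed by 0.08 ± 0.15 and -0.02 ± 0.15. Syk had 184 ± 29.3 against 176 ± 36.6 TPM, a log2 difference of 0.07 ± 0.18 and the widest interval, from -0.35 to 0.50. The adjusted p of each of these genes was 1.0 (limma).

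The authors' deposited table likewise gives the 9 genes adjusted p-values of 1.0, with log2 fold changes from -0.41 (Oscar) to 0.38 (Siglec15) and, for the other 7, from -0.05 to 0.12. That table calls 46 of 17382 genes, or 0.265%, at an adjusted p under 0.05, of which 0.242% are higher and 0.023% lower in CKO.

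**Figure D3:**
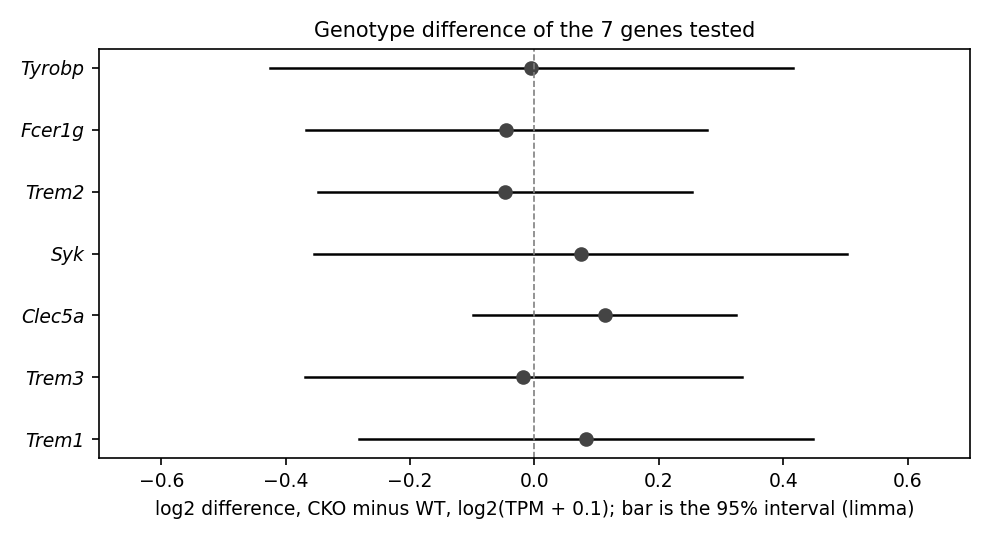
The plot of genotype differences gives the log2 difference, CKO minus WT, of the 7 genes tested as points with 95% intervals from limma as bars. Every interval includes 0; that of Clec5a, from -0.10 to 0.32, is the narrowest and that of Syk, from -0.35 to 0.50, the widest.

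What variation the genes showed ran across the labels. Tyrobp was higher in CKO 1, CKO 2 and WT 3 than in any of the other 3 libraries, and so was Syk; these are the libraries on the negative side of the first component. Relative to its own mean, Syk was at 0.22, 0.13 and 0.29 in them and at -0.23, -0.21 and -0.20 in CKO 3, WT 1 and WT 2 on the log2 scale. Tyrobp was at 0.14, 0.17 and 0.22 against -0.32, -0.08 and -0.13. Csf1r, the M-CSF receptor, whose signals DAP12 is known to modify, divided the libraries in the same way and more widely, at 0.30, 0.20 and 0.37 against -0.53, -0.17 and -0.18.

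Trem3 went the other way, at -0.11, -0.13 and -0.14 against 0.22, 0.22 and -0.05. Trem2 had its highest values in WT 3 and CKO 1 and its lowest in CKO 3, but CKO 2 lay below WT 1. Fcer1g, Clec5a and Trem1 did not divide along this line: Fcer1g was highest in WT 1 and lowest in WT 2, which share a side. Because the sides come from the libraries' own values, no test is attached to this division. In RNA of a mixed culture, fewer cells of a type and less RNA per cell cannot be told apart.

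The spread was moderate for all 7. From the lowest to the highest library Tyrobp and Syk covered 0.54 and 0.53 on the log2 scale, more than 57.3% and 56.4% of all genes tested, and Clec5a covered 0.28, more than 24.6%. The median over all genes was 0.46.

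**Figure D4:**
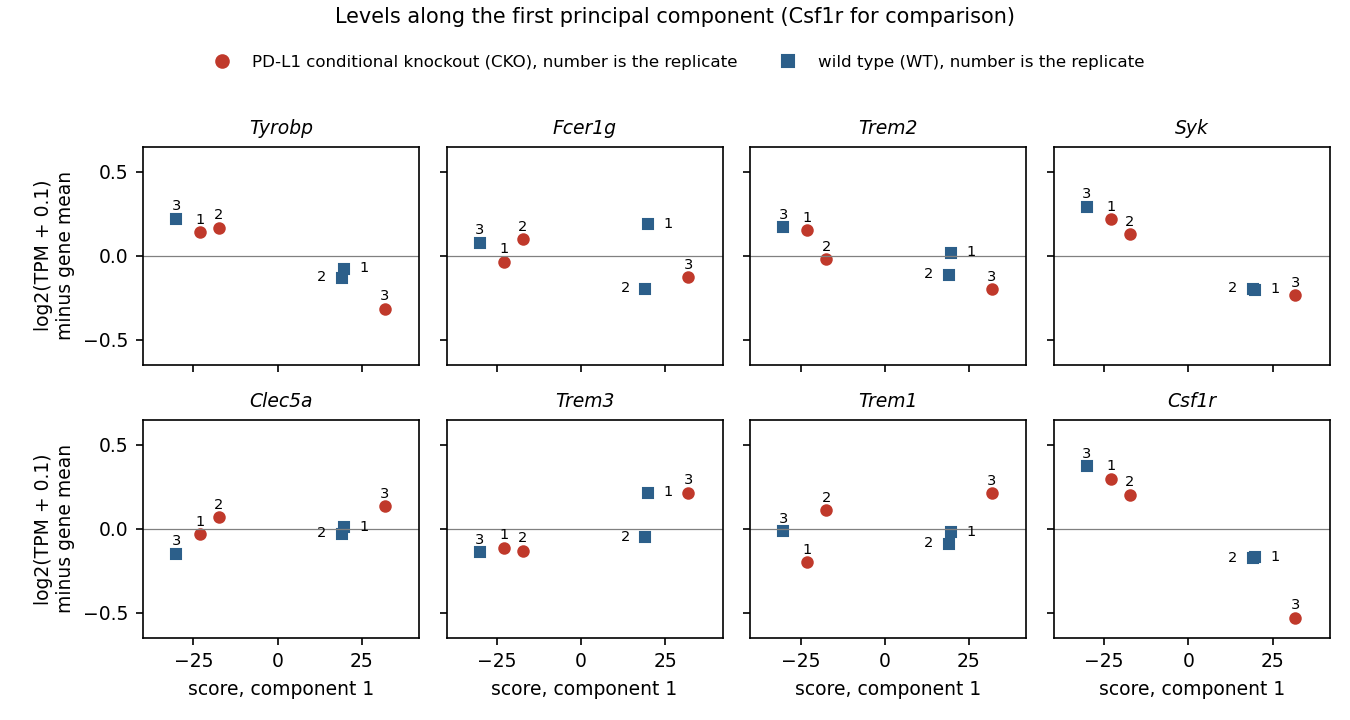
The plot along the first component gives, per gene, the library's component score on the x axis and its log2(TPM + 0.1) minus the gene's mean on the y axis, with circles for CKO, squares for WT and the replicate number beside each. Tyrobp, Syk and Csf1r lie above their means at left (CKO 1, CKO 2, WT 3) and below at right (WT 1, WT 2, CKO 3), Trem3 runs the opposite way, and Fcer1g, Clec5a and Trem1 do not divide between left and right.

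CKO 3 and WT 3 lie with the other group's libraries. Without both of them the log2 difference of Syk was 0.38 and passed (limma, adjusted p = 0.031), where 11.1% of 13441 genes passed and 5.49% passed as higher, but genotype and side then coincide and cannot be told apart. That of Tyrobp was 0.26 and did not pass (adjusted p = 0.14). Within the negative side the difference of Syk was -0.12 and within the positive side -0.03, and those of Tyrobp were -0.07 and -0.21 (1 library of one group and 2 of the other on each side). In the fit of all 6 libraries with a covariate for the side, Syk differed by -0.08 ± 0.06 and Tyrobp by -0.14 ± 0.08. Neither passed (limma, adjusted p = 0.77 and 0.74). The side was taken from these same values, so the errors and adjusted p-values of this fit do not account for that choice. They are not read as a test. Clec5a was higher in the libraries labelled CKO within each side, by 0.17 and 0.14.

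Each gene's profile over the 6 libraries was set against those of 11085 named genes with a mean of at least 1 TPM, by the root mean square difference of log2 values centred on each gene's mean. Closest to Tyrobp were Ehd4 (0.02) and Ppp6r2 (0.03), against a deviation of Tyrobp from its own mean of 0.19. Closest to Syk were Myo5a (0.02) and C1qb (0.03), the latter encoding a chain of complement C1q. Closest to Trem2 were Smpd1, the acid sphingomyelinase of lysosomes, and Plekhg3 (0.02 each). Closest to Fcer1g were Dgat1 and Pea15a (0.04 each), to Trem3 Prss16 (0.01) and Map2k1 (0.03), to Clec5a Zadh2 and Ubox5 (0.03 each), and to Trem1 Nqo1 (0.05) and Sntb1 (0.06). With 6 libraries and so many candidates, some profile is always near, and the names are a description.

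Ligands and partners of the receptors were listed separately, and 0 of 14 passed in either direction, 4 being positive and 10 negative with a median of -0.07. Apoe, the apolipoprotein that TREM2 binds, varied far more than its receptor: it had 4066, 2945 and 581 TPM in the libraries labelled CKO and 1065, 1206 and 4842 TPM in WT. The highest Apoe library was 8.33 times the lowest, where for Trem2 this was 1.29 times, and the ratio of Trem2 to Apoe ran from 0.196 in WT 3 to 1.27 in CKO 3. Clu, another lipoprotein ligand of TREM2, had 2.83 to 4.98 TPM and differed by -0.40 ± 0.18. Adam10 and Adam17, the proteases that shed TREM2 from the surface, had 188 to 238 and 190 to 230 TPM, with log2 differences of -0.06 ± 0.10 and 0.09 ± 0.11. Pglyrp1, a ligand of TREM1 made by neutrophils, had 29.1 to 51.2 TPM. Plxna1, the plexin that associates with TREM2 and DAP12, had 136, 124 and 205 TPM against 135, 113 and 133 TPM, with CKO 3 alone standing high. Its ligand Sema6d and the integrin chain Itgb3 differed by -0.33 ± 0.28 and -0.23 ± 0.17.

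Other receptors, most of which signal through DAP12, the FcR gamma chain or a related tyrosine motif, were listed together with Hcst. This list had 26 genes, of which 25 were tested. None passed, 12 were positive and 13 negative, and their median was -0.00. The most abundant were Fcgr3, a receptor for IgG complexes, with 1396, 1355 and 914 TPM against 816, 951 and 1442 TPM, and Clec4d, a lectin for mycobacterial glycolipid, with 1320, 1349 and 1314 against 1015, 1282 and 1316 TPM. Fcgr3, like Tyrobp, was high in CKO 1, CKO 2 and WT 3 and low in the other 3 libraries, and its log2 difference was 0.21 ± 0.26.

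Groups did not overlap for 3 genes that were higher and 1 that was lower in the libraries labelled CKO, or 16.0% of the 25 beside 5.12% over all genes. Fcgr4, the activating IgG receptor that needs the gamma chain for its surface expression, had 125, 136 and 159 TPM against 82.7, 74.3 and 110 TPM, a log2 difference of 0.67 ± 0.16 (limma, adjusted p = 1.0; adjusted p = 0.117 in the authors' deposited table). Its interval ran from 0.28 to 1.06. Pira2, an activating receptor for MHC class I, had 14.6, 14.6 and 14.9 TPM against 11.1 to 13.4 TPM, and Klrk1, which encodes NKG2D, 0.788, 0.851 and 1.58 against 0.748, 0.481 and 0.648 TPM. Klrk1 is also a gene of NK and T cells, whose 9 listed markers summed to 7.13 to 10.1 TPM in the libraries labelled CKO and 4.09 to 6.48 TPM in WT, with Prf1, Gzma, Ncr1 and Cd3e at 0 in at least 1 library; their part in its difference was not tested. Clec1b, the podoplanin receptor of platelets, was the lower one, with 7.77, 6.20 and 5.60 against 8.27, 8.35 and 10.3 TPM. The 8 platelet markers, Clec1b among them, summed to 799 to 1160 TPM and 983 to 1082 TPM.

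Signalling genes below Syk differed little between the groups. Of 32 tested, 0 passed, 19 were positive and 13 negative, the groups overlapped for all, and the median was 0.02. Lat2, the adaptor that gathers Syk's targets in myeloid cells, had 425, 441 and 544 TPM against 445, 427 and 415 TPM. Prkcd, the protein kinase C that carries the signal to CARD9, had 357, 349 and 285 against 289, 277 and 355 TPM. Of the Src family kinases that phosphorylate the ITAM, Lyn had 202 to 224 TPM, whereas Src itself had 1.52 to 2.56 TPM and the lowest difference of the list, -0.34 ± 0.20. Bcl10, which joins CARD9 to MALT1, had the highest, 0.13 ± 0.14. The highest library of Src was 1.69 times the lowest, the widest spread of the 32.

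Another list held mostly inhibitory receptors with an ITIM and phosphatases that act against Syk signalling. Of its 25 genes tested 0 passed, 11 were positive and 14 negative, and the median was -0.02. Genes were listed by name, and an ITIM was not sought in any of them, Gp49a among them. Sirpa, the receptor for CD47, had 1260, 1257 and 1008 TPM against 1126, 1157 and 1308 TPM, and Gp49a, of the LILRB4 family, 838, 846 and 1203 against 940, 794 and 755 TPM. The phosphatases SHP-1, encoded by Ptpn6, and SHIP1, encoded by Inpp5d, had 394 to 507 and 168 to 200 TPM. Fcgr2b, the inhibitory IgG receptor, had the largest positive difference, 0.50 ± 0.37, from 203, 170 and 127 TPM against 91.3, 81.6 and 206 TPM, where WT 3 stands with the libraries labelled CKO. Siglecg, also a gene of B cells, had the lowest, -0.44 ± 0.22, while Pecam1 and Inppl1, which encodes SHIP2, differed by -0.19 ± 0.13 and -0.09 ± 0.07.

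Other ITAM chains, most of them of lymphocytes, were present at low levels. The list of 8 genes also held Ms4a2 of mast cells and Zap70, a kinase. Of the 8 genes 7 were tested, and 0 passed. Cd3g, which encodes a CD3 chain of T cells, had 0.495, 1.46 and 1.41 TPM in the libraries labelled CKO and 0.231, 0.0314 and 0.171 TPM in WT, a log2 difference of 2.30 ± 0.50. Cd3e had 0.329, 0.432 and 0.287 against 0.0658, 0.0672 and 0 TPM. It entered the test through the libraries labelled CKO alone. The filter thus bears on any count or median over this list, and none is read further. Cd3g and Cd3e are called in the authors' deposited table, with adjusted p-values of 0.000577 and 0.00371, while neither passed in limma (adjusted p of 1.0 and 0.83). The B cell chain Cd79b had 33.8, 41.7 and 25.4 against 41.1, 47.9 and 45.8 TPM, a log2 difference of -0.44 ± 0.18, and Cd79a one of -0.57 ± 0.24. The 8 B cell markers, these chains among them, summed to 51.5 to 85.6 TPM in the libraries labelled CKO and 82.8 to 106 TPM in WT, and all 8 had a negative difference with 0 passing. How much of the values of these chains follows the number of lymphocytes was not tested. The Fc receptor chain of mast cells, Ms4a2, had 0.560 to 0.894 TPM, and its partner Fcer1a 0.263 to 0.498 TPM, against 1622 to 2115 TPM for Fcer1g. Of 8 listed mast cell and basophil markers, Cma1, Mcpt4 and Tpsb2 were at 0 in at least 4 libraries, and the list summed to 14.3 to 17.3 TPM in the libraries labelled CKO and 10.5 to 16.8 TPM in WT. The 8 dendritic cell markers summed to 417 to 577 and 386 to 435 TPM, nearly all of it from Bst2.

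**Figure D5:**
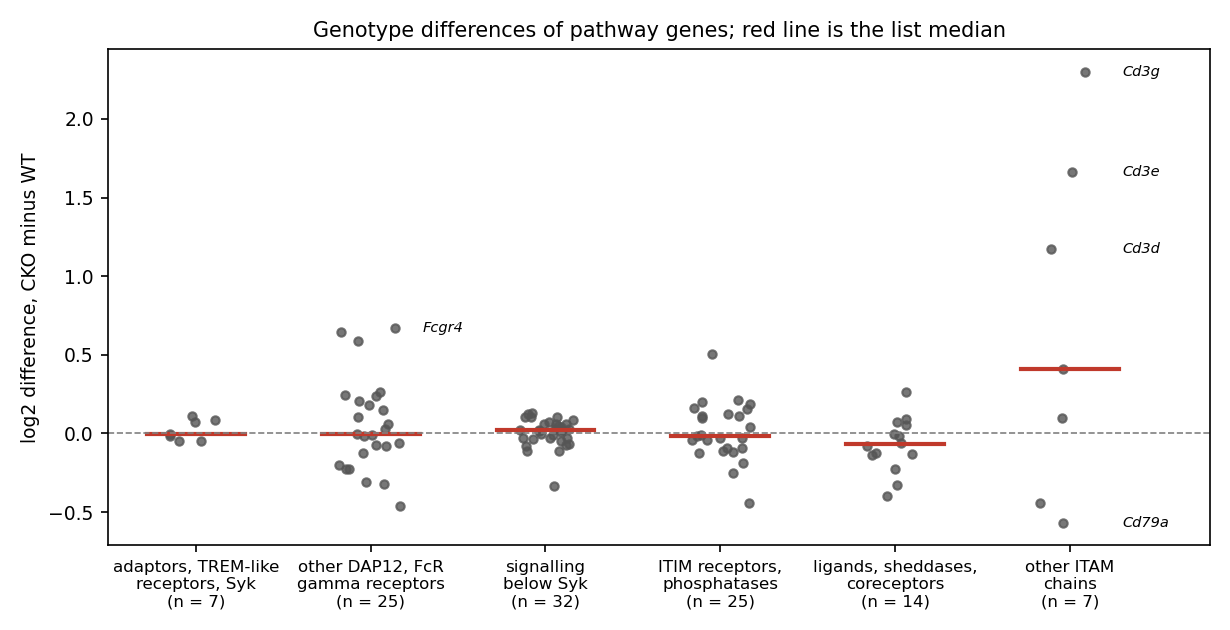
The plot of pathway genes gives the log2 difference, CKO minus WT, of each tested gene by list, with the list's median as a red line. The 7 adaptor, receptor and kinase genes lie between -0.05 and 0.11 and the signalling genes between -0.34 and 0.13. Fcgr4 at 0.67 and the T cell chains Cd3g, Cd3e and Cd3d at 2.30, 1.66 and 1.17 stand off. Of these, Cd3e entered the test through the libraries labelled CKO alone.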

How the data were processed

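RNA of 6 myeloid cultures was made into stranded total RNA libraries and sequenced on a HiSeq 2500, per the labels. The build mm10 and, with no role or settings, edgeR, TopHat2 2.0.12, Subread, featureCounts, Picard 1.127 and FastQC 0.11.2 are listed by the submitters' processing notes. The deposited table of the authors gives TPM per gene and library, a log2 fold change, a mean log2 CPM, a test score, p-values and adjusted p-values. Whole reads were recovered from the TPM for 99.99% of values (tolerance 0.01 reads).

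The main test was limma 3.58.1 in R 4.3.3 on log2(TPM + 0.1), with genes of at least 0.1 TPM in 3 libraries, all 6 libraries, no covariate and Benjamini-Hochberg adjustment over all genes tested; it was tested on simulated data. A log2 difference on this scale understates that of low genes. An exact permutation test of 3 against 3 libraries cannot go below p = 0.1. The labels call the libraries biological triplicates, and p-values measure the spread between these samples.

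The genes and lists (pathway lists and markers of macrophages, neutrophils, osteoclasts, mast cells and basophils, NK and T cells, B cells, platelets and dendritic cells) were chosen with earlier results of these data known. By rule the text names every gene of the set, the 4 smallest p-values and the 2 highest means of each pathway list, and the 2 highest means of each marker list; further genes were named for their role after their values were seen, and 1 gene that the rule names is not reported here. Alternatives were other pseudocounts, filters and a test on recovered reads, a replicate block, a covariate for the component's side, and libraries left out.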

Additional observations from a re-analysis of the deposited data

How the results depend on the processing

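Over the alternatives, the sign turned in 18 of 105 differences of single genes and in 16 of 90 list medians, and 1 difference passed the threshold. The count of genes called was 0 in every alternative but one: without CKO 3 and WT 3 it was 1496. With the replicate block it was 0, and the log2 difference of Syk was 0.074 as without the block. Deviations of same-numbered libraries correlated at -0.24, -0.15 and -0.53. CKO 3 and WT 3 lie on opposite sides of the first component, so these values cannot show whether same-numbered samples were paired.

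With libraries left out (each in turn, or CKO 3 and WT 3 together), differences ran from -0.090 to 0.26 for Tyrobp, -0.16 to 0.036 for Fcer1g, -0.0029 to 0.20 for Trem1, -0.13 to 0.11 for Trem2, -0.20 to 0.086 for Trem3, 0.028 to 0.16 for Clec5a and -0.016 to 0.38 for Syk. The sign of 6 of the 7, all but Clec5a, thus turned with the omission of some library, and the cause was not tested. Tyrobp was at 0.15 without CKO 3 and 0.10 without WT 3, Fcer1g at 0.0074 without CKO 3 and 0.036 without WT 1, and Trem2 at 0.041 without CKO 3 and 0.025 without WT 3. Trem3 was at 0.034, 0.043 and 0.086 without CKO 1, CKO 2 and WT 1, and Syk at -0.016, -0.0099 and -0.0066 without CKO 1, WT 1 and WT 2. Without both CKO 3 and WT 3, Tyrobp was at 0.26, Fcer1g at 0.035, Trem2 at 0.11 and Syk at 0.38, the last past the threshold (limma, adjusted p = 0.031), and side and group then coincide. With a covariate for the side, Trem3 was at 0.075 and Syk at -0.076. None of the 7 passed in the other alternatives, with adjusted p-values from 0.640 to 1.0 (limma). The lowest was that of Clec5a with the covariate for the side, which was taken from these same values.

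With libraries left out in these ways, list medians ran from -0.019 to 0.086 for the other receptors. They ran from -0.065 to 0.088 for the list of mostly inhibitory receptors and phosphatases. The highest of each came without both CKO 3 and WT 3. For the list of other ITAM chains the median ran from -0.023 to 0.51. That list, mostly low genes, was at 0.072 with a pseudocount of 1 and 0.83 with 0.01. With a filter of 1 TPM, which leaves out low genes, it was at -0.51. It was at 0.83 on recovered reads and 0.19 without both libraries. Cd3e entered the main test through the libraries labelled CKO alone, so these medians depend on the filter and are not read further. Depth limits Oscar and Siglec15, with at most 4 reads in a library.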
